A study of Mus musculus with 6 samples.

Results

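Zfp genes that sit in clusters along mouse chromosomes are described here by the peaks that a BMAL1 antibody gave in retinal chromatin. Members were chosen by position alone: protein-coding genes of the RefSeq table (assembly GRCm38.p6) whose symbol is Zfp followed by digits, and which have at least 2 other such genes starting within 500 kb on the same chromosome. That rule took 218 of 367 Zfp genes, out of 21900 protein-coding genes, and left 149 isolated Zfp genes as the set they are compared with. The study made chromatin immunoprecipitation sequencing (ChIP-seq) libraries from mouse retinas with a rabbit antibody to BMAL1. Of these, 3 came from mice with a conditional knockout of the clock gene Bmal1 (Bmal1 CKO 1 to 3) and 3 from wild-type mice (control 1 to 3). Mice of both genotypes were C57BL/6, received no treatment, and were weaned on postnatal day 20. The labels do not name the Cre driver, the cells that lost the gene, the age at collection or the time of day. The deposited data are 1 list of peaks per library, without expression values, so the retinal label could not be checked against marker genes.

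Most Zfp genes encode proteins that bind DNA through repeated C2H2 zinc fingers, and many of these also carry a KRAB domain. A KRAB domain recruits TRIM28 (KAP1), which brings the histone H3 lysine 9 methyltransferase SETDB1 and HP1 proteins, and in this way KRAB zinc finger proteins silence retroelements and some imprinted genes. The family grew by tandem duplication, which is why its members lie side by side, often with similar sequence. BMAL1 is the partner of CLOCK in the activator at the centre of the circadian clock, and the pair binds the E-box CACGTG. Symbols of the Zfp form also cover genes of other kinds: Zfp36 encodes the mRNA-binding protein tristetraprolin, and Zfp185 a LIM-domain protein.

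The 6 lists differed widely in length within each genotype. They held 1444, 138254 and 519 peaks in Bmal1 CKO 1, 2 and 3, against 179475, 410 and 372 peaks in control 1, 2 and 3. The background recovered from the deposited values was 2.78, 5.83 and 0.560 fragments per base in the CKO libraries, against 3.46, 0.609 and 0.852 in the controls. Each genotype thus had 1 long list (Bmal1 CKO 2 and control 1), and nearly all calls at gene ends come from these. In a short list a gene without a summit had no peak past the caller's limit at that depth, which does not show absence of binding. The peaks were called per library, nothing in the labels says how the 6 libraries were batched, and p-values measure the spread between these libraries.

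The clustered genes formed 34 clusters on 15 chromosomes when members were chained at 500 kb. The cluster with the most members, 23, ran from Zfp160 to Zfp13 on chromosome 17, followed by 20 from Zfp640 to Zfp273 on chromosome 13 and 15 from Zfp84 to Zfp146 on chromosome 7. The median cluster had 4.5 members. Zfp965 on chromosome 2 was a cluster of 1, since its neighbouring Zfp genes do not themselves meet the rule. Chromosome 7 alone held 76 members in 9 clusters. Together the clusters spanned 17.2 Mb, or 0.632% of the genome. Clustered Zfp genes had a median length of 16.3 kb, isolated Zfp genes 21.5 kb and all protein-coding genes 17.1 kb.

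RefSeq gives a start site for 190 of the 218 members, each with the 250 bases before it and the 50 bases from it on (assembly GRCm38.p6, whose coordinates are those of mm10, the build of the peak lists). Members with high and low readings at the start site are shown first, with CG pairs in capitals, because the members with and without a summit differed in CG content. Zfp433 (chr10:81704575-81704874, plus strand, 10 CG pairs) had the second highest pair of folds among the members, and Zfp600 (chr4:146156577-146156876, plus strand, 5 CG pairs) was called at its start in 3 lists. Zfp235 (chr7:24132122-24132421, plus strand, 1 CG pair) and Zfp993 (chr4:146512599-146512898, plus strand, 4 CG pairs) had no summit at the start in any list.
Zfp433: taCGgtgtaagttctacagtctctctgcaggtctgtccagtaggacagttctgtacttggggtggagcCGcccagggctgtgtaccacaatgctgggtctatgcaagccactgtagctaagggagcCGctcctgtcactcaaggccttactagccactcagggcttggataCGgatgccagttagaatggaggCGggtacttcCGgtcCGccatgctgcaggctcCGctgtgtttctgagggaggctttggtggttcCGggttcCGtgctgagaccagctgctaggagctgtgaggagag
Zfp600: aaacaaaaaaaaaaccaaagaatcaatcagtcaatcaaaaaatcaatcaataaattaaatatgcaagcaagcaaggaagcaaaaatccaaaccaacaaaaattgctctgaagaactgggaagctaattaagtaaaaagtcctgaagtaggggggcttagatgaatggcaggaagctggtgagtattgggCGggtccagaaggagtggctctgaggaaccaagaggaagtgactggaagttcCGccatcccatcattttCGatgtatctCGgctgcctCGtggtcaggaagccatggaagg
Zfp235: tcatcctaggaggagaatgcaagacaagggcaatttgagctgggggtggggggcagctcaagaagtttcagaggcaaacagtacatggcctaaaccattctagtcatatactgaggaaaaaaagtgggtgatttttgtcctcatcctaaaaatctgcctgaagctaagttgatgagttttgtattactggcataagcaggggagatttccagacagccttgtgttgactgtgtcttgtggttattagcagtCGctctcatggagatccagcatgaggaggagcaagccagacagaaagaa
Zfp993: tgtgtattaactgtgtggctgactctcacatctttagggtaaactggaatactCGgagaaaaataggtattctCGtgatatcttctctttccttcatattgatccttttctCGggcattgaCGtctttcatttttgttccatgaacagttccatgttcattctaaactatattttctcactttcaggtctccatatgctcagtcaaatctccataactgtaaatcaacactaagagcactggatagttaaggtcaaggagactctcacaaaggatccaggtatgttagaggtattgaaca
The Zfp944 promoter (chr17:22361351-22361650, minus strand) is shown for its CACGTG, in capitals, the E-box of CLOCK and BMAL1.
Zfp944: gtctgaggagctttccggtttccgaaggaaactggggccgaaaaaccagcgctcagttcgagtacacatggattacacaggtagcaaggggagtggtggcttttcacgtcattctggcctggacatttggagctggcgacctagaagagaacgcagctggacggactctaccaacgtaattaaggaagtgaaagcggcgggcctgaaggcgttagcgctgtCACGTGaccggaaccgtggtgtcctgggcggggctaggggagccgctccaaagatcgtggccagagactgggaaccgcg
Zfp965 (chr2:175469775-175470074, plus strand) and Zfp971 (chr2:178023034-178023333, plus strand) are shown as the pair of members whose promoters were most alike. Capitals mark the 9 positions at which they differ.
Zfp965: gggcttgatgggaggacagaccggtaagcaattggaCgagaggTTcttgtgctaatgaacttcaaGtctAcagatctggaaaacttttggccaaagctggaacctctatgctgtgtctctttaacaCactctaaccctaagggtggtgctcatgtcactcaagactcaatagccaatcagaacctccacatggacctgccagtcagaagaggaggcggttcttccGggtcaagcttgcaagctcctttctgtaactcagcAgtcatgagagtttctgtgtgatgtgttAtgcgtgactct
Zfp971: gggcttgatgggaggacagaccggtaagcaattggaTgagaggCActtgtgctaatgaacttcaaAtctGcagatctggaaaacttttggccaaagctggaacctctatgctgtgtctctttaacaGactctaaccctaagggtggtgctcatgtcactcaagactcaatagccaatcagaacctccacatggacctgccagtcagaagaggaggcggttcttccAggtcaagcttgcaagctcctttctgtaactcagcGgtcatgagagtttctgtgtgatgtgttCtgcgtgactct

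At the ends of clustered Zfp genes, BMAL1 antibody peaks were common in both long lists and nearly missing from the short ones, in either genotype. A gene counted as called at an end if the summit of a peak was no more than 1 kb from one of its annotated ends. In the CKO libraries 2, 182 and 0 of the 218 members were called, against 186, 0 and 0 in the controls. Over all 21900 protein-coding genes the share called was 0.342%, 58.9% and 0.105% in the CKO libraries and 69.5%, 0.0594% and 0.0594% in the controls. In the long lists the members' shares, 83.5% in Bmal1 CKO 2 and 85.3% in control 1, lay above those backgrounds.

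The share of members called at an end averaged 28.1% ± 47.9 in CKO libraries and 28.4% ± 49.3 in controls (SD, n = 3 each). The difference of −0.31 percentage points was far inside the spread within each genotype (exact permutation test over 20 assignments, two-sided p = 1). Although 20 assignments allow a p of 0.1, that was out of reach here. With 1 long list in each genotype, every assignment that puts both long lists in 1 group gives a larger difference. The test thus cannot decide whether the genotypes differ. The direction of the difference was set by single libraries: it was 13.3 points without Bmal1 CKO 1, 13.8 without Bmal1 CKO 3 and 28.1 without control 1. Any effect of genotype on this share cannot be told apart from the difference in list length.

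Clustered Zfp genes were called at an end in 83.5% in Bmal1 CKO 2 and 85.3% in control 1. Among isolated Zfp genes 0, 116 (77.9%) and 0 were called in the CKO libraries, and 127 (85.2%), 0 and 0 in the controls. The clustered share minus the isolated share was 0.917, 5.63 and 0 points in the CKO libraries and 0.0862, 0 and 0 points in the controls. The mean of 1.11 points (SD 2.25, n = 6 libraries) gave p = 0.25 in a two-sided exact sign-flip permutation test. With 3 libraries at exactly 0 this is the smallest p the test could give, so it does not tell whether the sets differ. The difference was above 0 in the other 3 libraries, and its mean was 0.201 without Bmal1 CKO 2. Members that only just met the rule, with exactly 2 neighbours, were called in 34 of 43 (79.1%) in Bmal1 CKO 2 and 36 (83.7%) in control 1. Those that just missed it, with 1 neighbour, were called in 27 of 34 (79.4%) and 26 (76.5%).

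**Figure D1:**
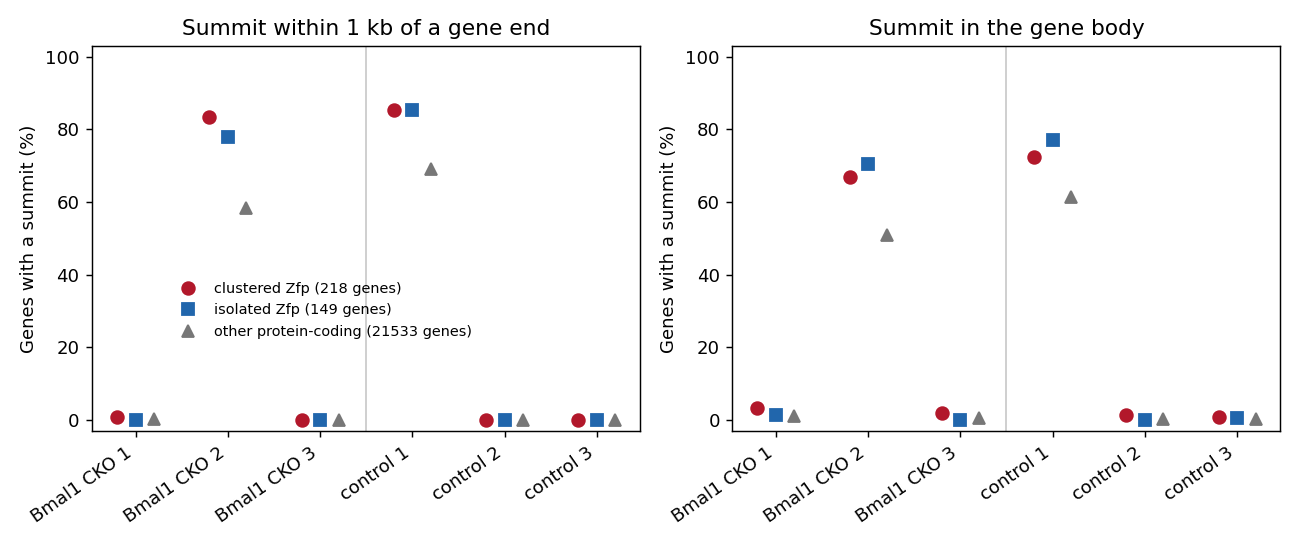
Share of genes (%) with a peak summit within 1 kb of a gene end (left) or in the gene body (right), 1 point per gene set and library, for 218 clustered Zfp, 149 isolated Zfp and 21533 other protein-coding genes. Bmal1 CKO 2 and control 1 stand far above the other 4 libraries in every set, and both Zfp sets lie above the other genes there, at 77.9% to 85.3% for ends.

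Most members called in either long list were called in both. At an end, 173 members (79.4%) were called in both, 9 in Bmal1 CKO 2 alone, 13 in control 1 alone and 23 (10.6%) in neither. Over all protein-coding genes 54.7% were called in both and 26.3% in neither, and 111 isolated Zfp genes (74.5%) were called in both. Of the end summits of members, 12 of 227 in Bmal1 CKO 2 (5.29%) and 14 of 233 in control 1 (6.01%) also lay at another gene's end. Through such shared summits alone 13 and 14 members were called. The same shares over all genes were not counted. Against other genes of like length, the members' share depended on the length. Of the 32 members of up to 10 kb, 75% were called in Bmal1 CKO 2 and 90.6% in control 1, where other protein-coding genes of that length stood at 44.7% and 55.9%. Of the 100 members of 10 to 20 kb, 87 were called in Bmal1 CKO 2 and 90 in control 1, where other protein-coding genes of that length stood at 60.04% and 72.8%. From 20 to 40 kb the 71 members stood at 84.5% and 78.9%, and the other genes at 65.5% and 75.8%. The 15 members over 40 kb stood at 73.3% in each list, and the other genes at 71.2% in Bmal1 CKO 2 and 80.4% in control 1.

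Most of these peaks lay at the start of transcription. Of the 190 members with a RefSeq start site, 173 (91.1%) had a summit within 1 kb of it in Bmal1 CKO 2 and 178 (93.7%) in control 1, where all 17492 genes with a start site stood at 59.7% and 69.2%. Isolated Zfp genes reached 98 of 115 (85.2%) and 101 (87.8%). A summit at the other end, more than 1 kb from any start site, was found for 28 members (14.7%) in Bmal1 CKO 2 and 37 (19.5%) in control 1, against backgrounds of 10.1% and 16.4%.

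The summits sat slightly inside the genes. The nearest summit lay a median of 73 bp downstream of the start site in Bmal1 CKO 2 and 114 bp downstream in control 1, and 71.1% and 79.2% of members with a summit had it on the downstream side. Isolated Zfp genes had medians of 36 and 52 bp, with 59.2% and 60.4% downstream, and all genes 39 and 63 bp, with 58.2% and 63.2% downstream. Within 250 bp of the start site lay 76.9% of the members' nearest summits in Bmal1 CKO 2 and 79.2% in control 1. These distances were described and not tested, since 1 long list per genotype is no replicate.

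**Figure D2:**
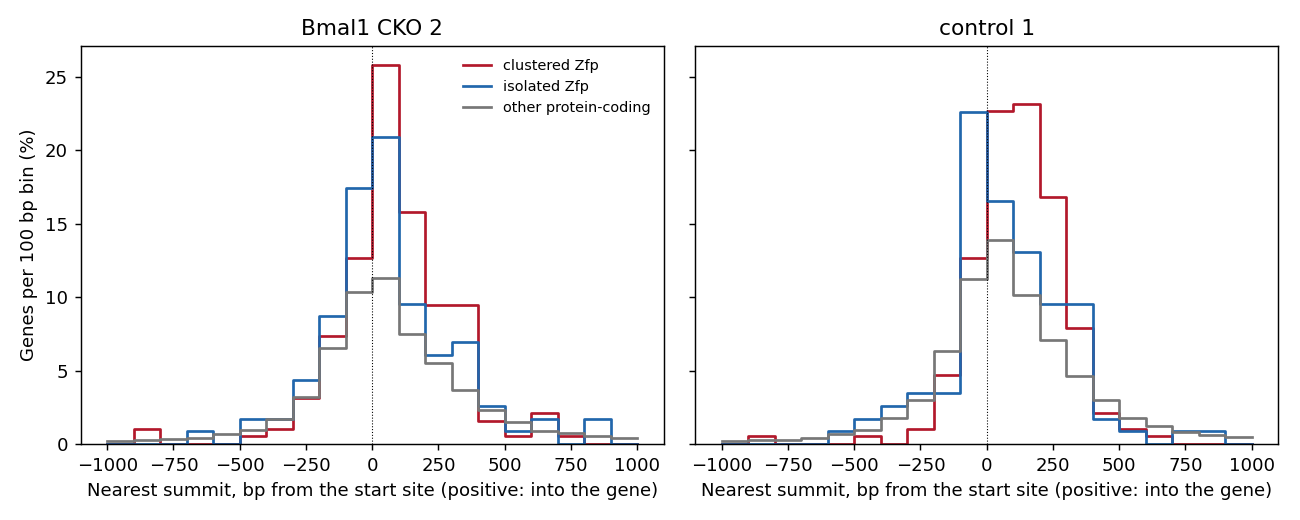
Position of the nearest summit within 1 kb of the start site (x axis, bp, positive into the gene) as the share of genes per 100 bp bin (y axis, %), for clustered Zfp, isolated Zfp and other protein-coding genes in Bmal1 CKO 2 (left) and control 1 (right). The clustered Zfp curve peaks just downstream of 0 in both lists, with medians of 73 bp and 114 bp.

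Summits at members were present even where the promoter was poor in CG pairs. The ratio of observed to expected CG pairs in the 300 bases had a median of 0.564 over members, 0.718 over isolated Zfp genes and 0.564 over all genes. Members with a start-site summit had a median of 0.588 in Bmal1 CKO 2 and 0.591 in control 1, while members without one had 0.289 and 0.271. Among the 45 members below 0.4, 35 (77.8%) had a start-site summit in each long list. Other protein-coding genes below 0.4 had one in 24.9% in Bmal1 CKO 2 and 33.1% in control 1, and isolated Zfp genes in 12 and 13 of 20. At or above 0.7 the members stood at 96.4% and 98.2%, and the other genes at 86.3% and 94.9%.

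The E-box was no more frequent in these promoters than in promoters at large. The letters CACGTG, which read the same on both strands, occurred in 15 of 190 member promoters (7.89%), in 9 of 115 isolated Zfp promoters (7.83%) and in 8.91% of all promoters of the same 300 bases. Of the 15 members, 9 lay on chromosome 17, and 8 of those in the cluster from Zfp160 to Zfp13, among them Zfp944, printed above. A start-site summit was found for 13 of the 15 (86.7%) in Bmal1 CKO 2 and all 15 in control 1, and for 160 (91.4%) and 163 (93.1%) of the 175 members without the letters. Over all genes the summit was more frequent with the letters than without them, at 75.9% and 58.2% in Bmal1 CKO 2 and 86.5% and 67.5% in control 1. Zfp820 and Zfp933 had the letters and a start-site summit in control 1 alone.

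The fold enrichment that the authors give for each peak compares the summit with the local background of the same library, so it ranks peaks within a list. The highest fold at a member's end had a median of 3.52 in Bmal1 CKO 2 and 4.55 in control 1. Isolated Zfp genes had medians of 3.35 and 4.39, and all protein-coding genes 3.10 and 3.93. The fold was lower in Bmal1 CKO 2 than in control 1 for 163 of the 173 members called in both (94.2%), with a median ratio of 0.727. This was so for the whole list: among 11974 genes called in both, 94.7% had the lower fold in Bmal1 CKO 2 and the median ratio was 0.749. The libraries also differ in background, 5.83 fragments per base in Bmal1 CKO 2 and 3.46 in control 1, and the part of that in the ratio was not tested.

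**Figure D3:**
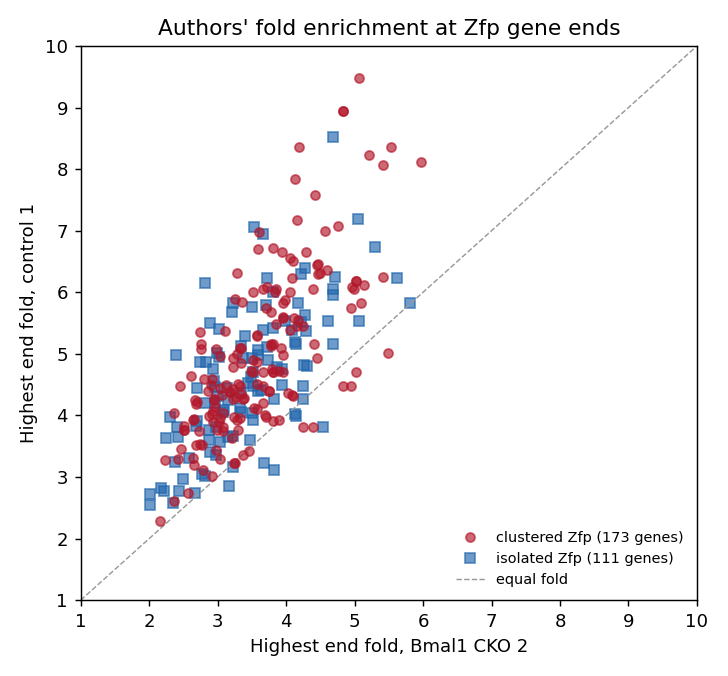
Highest authors' fold at a gene end in Bmal1 CKO 2 (x axis) and control 1 (y axis), 1 point per gene called in both, for 173 clustered and 111 isolated Zfp genes, with a dashed line of equal folds. Points of both sets lie mostly above the line, as 163 of the 173 clustered genes do, and the sets overlap.

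By the lower of both long-list folds, Zfp992 on chromosome 4 led the members, with 5.96 in Bmal1 CKO 2 and 8.12 in control 1. In Bmal1 CKO 2 that was 59 fragments stacked over an expected 9.06, and in control 1 44 over 4.54. Zfp433 on chromosome 10 followed with 5.53 and 8.36, its summits 132 bp and 208 bp downstream of the start site printed above. The others of the first 10 were Zfp442, Zfp738, Zfp868, Zfp600, Zfp991, Zfp677, Zfp429 and Zfp944, with folds of 5.01 to 5.48 in Bmal1 CKO 2 and 5.02 to 9.48 in control 1. They came from 6 chromosomes, and 3 of the 10 (Zfp992, Zfp600 and Zfp991) lay in the clusters of chromosome 4. Zfp429 on chromosome 13 had the highest control 1 fold of any member, 9.48 with 46 fragments over 3.96, against 5.06 with 38 over 6.70 in Bmal1 CKO 2. It stood at the 97.2 percentile of called gene ends in Bmal1 CKO 2 and the 99.8 percentile in control 1. Isolated Zfp genes reached like values: Zfp770 had 5.81 and 5.83, Zfp37 5.62 and 6.23, and Zfp932 5.30 and 6.73.

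Members called at an end in 1 long list only reached folds of 4.24 in Bmal1 CKO 2 and 4.60 in control 1. In Bmal1 CKO 2 alone the first 5 were Zfp972 (4.24), Zfp260 (3.24), Zfp708 (2.78), Zfp777 (2.76) and Zfp335 (2.69). In control 1 alone they were Zfp933 (4.60), Zfp811 (4.26), Zfp865 (3.78), Zfp980 (3.78) and Zfp663 (3.72). Some of these calls depend on the window: Zfp708, Zfp777 and Zfp335 also had a summit within 1 kb of the start site in control 1, 132, 132 and 168 bp downstream of it. For Zfp335 the summit in Bmal1 CKO 2 was 65 bp from that in control 1, and only the summit in Bmal1 CKO 2 fell inside the window at the annotated end. Zfp972 and Zfp260 had no start-site summit in control 1. None of these end calls recurred in a short list of the same genotype, so none is a replicated difference between genotypes.

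Some members have known roles and were picked for these, not for their values. Zfp809, which silences proviruses of murine leukaemia virus, had end folds of 3.78 in Bmal1 CKO 2 and 5.14 in control 1. Zfp445, which maintains genomic imprints, had 3.22 and 4.79. Zfp568, a repressor of a placental Igf2 transcript, had 3.25 and 5.90. All 3 exceeded the members' median in control 1, and Zfp809 alone did so in Bmal1 CKO 2. Zfp36, which encodes no C2H2 protein, had an end summit in control 1 alone, at a fold of 2.18.

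Clusters differed in how many members were called. Every member was called at an end in 14 of the 34 clusters in Bmal1 CKO 2 and 17 in control 1. In the cluster from Zfp160 to Zfp13, 21 of 23 members (91.3%) were called in Bmal1 CKO 2 and 22 (95.7%) in control 1. In the cluster from Zfp640 to Zfp273, 15 of 20 (75%) were called in each, and in that from Zfp84 to Zfp146, 13 of 15 (86.7%) and 11 (73.3%). The lowest shares among clusters of 10 or more were 53.8% and 61.5%, in the 13 genes from Zfp180 to Zfp574 on chromosome 7. These shares depend on where the annotated ends fall. Among the genes from Zfp180 to Zfp574 with a RefSeq start site, only Zfp235 had no start-site summit in either long list. From Zfp640 to Zfp273, Zfp759, Zfp458, Zfp595 and Zfp459 had no end summit in either long list and a start-site summit in both. Counting summits anywhere in the span, 32 of 34 clusters had more per Mb than the genome as a whole, 50.8 per Mb in Bmal1 CKO 2 and 65.9 per Mb in control 1. The median cluster had 86.0 and 118 summits per Mb.

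**Figure D4:**
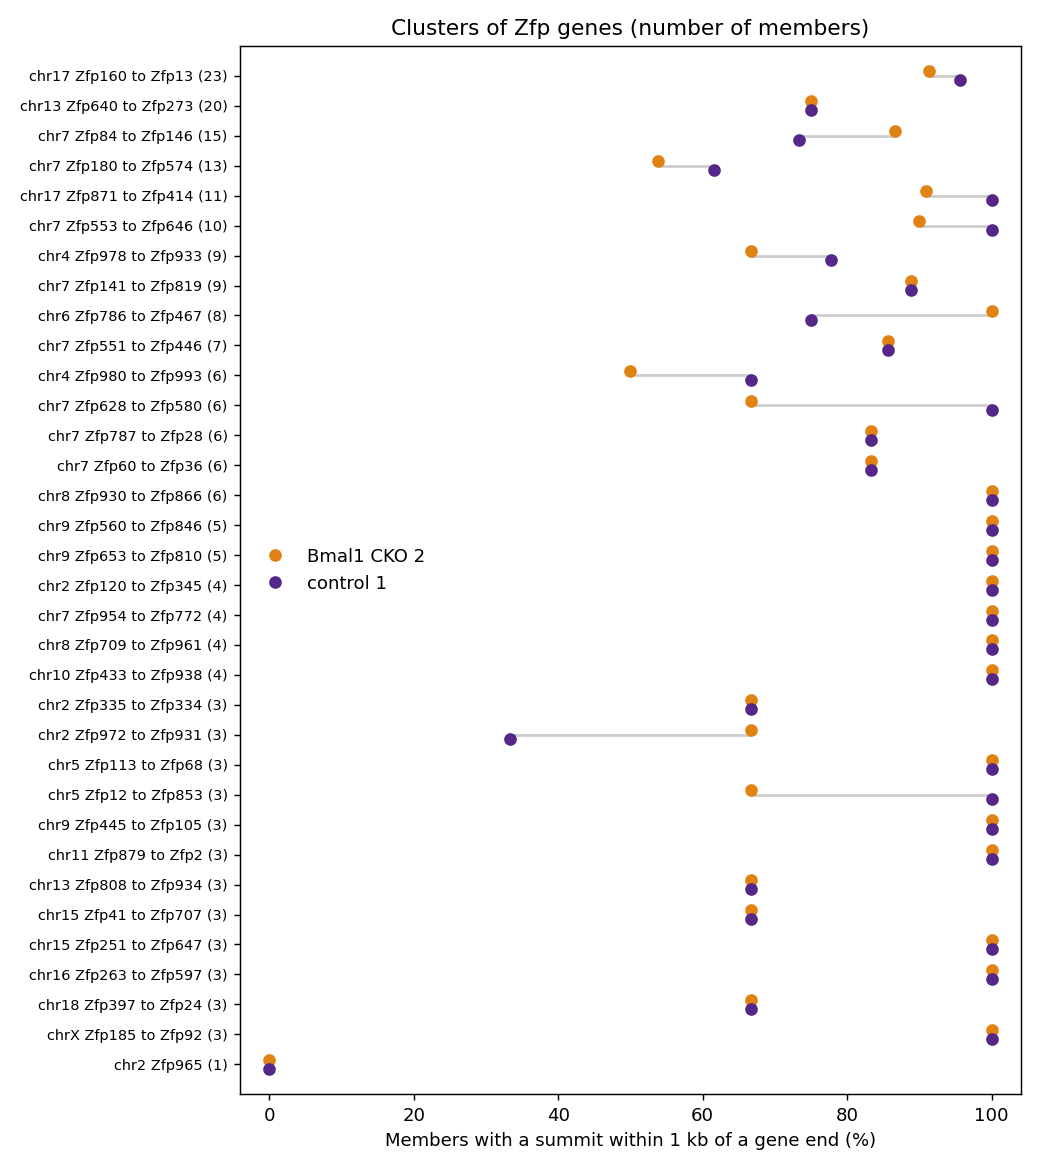
Share of members (%) with a summit within 1 kb of a gene end, for each of the 34 clusters in order of size, in Bmal1 CKO 2 and control 1, joined by a grey line. Most clusters lie at 66.7% or more in both lists, and the 2 clusters of chromosome 4 are at 50% to 77.8%. Zfp965, the only member of its cluster, is at 0 in both.

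Of the 23 members with no end summit in either long list, 21 had summits in the gene body. They were spread over the clusters, with 9 on chromosome 7, 5 on chromosome 13 and 4 on chromosome 4. Some have their RefSeq start site inside the annotated span: Zfp787 and Zfp428 had no end summit, and a summit at the start site. By start site, 7 of 190 members (3.68%) had no summit in either long list, against 27.7% of other protein-coding genes: Zfp965, Zfp931, Zfp987, Zfp993, Zfp534, Zfp235 and Zfp84. Zfp965 and Zfp931, both on chromosome 2, had no summit anywhere in the gene in any list.

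Zfp965 and Zfp971 have almost the same promoter and opposite readings. Over the 300 bases printed above they were 97.0% identical, the only pair of members at 90% or more; the next, Zfp980 and Zfp979, reached 85.0%. Zfp971 had an end fold of 4.10 in Bmal1 CKO 2 and 6.50 in control 1, with summits 306 bp and 320 bp downstream of its start site, beyond the bases compared. How reads that match several copies were placed is not given in the sources used here, and the part of this in the difference was not tested.

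Within gene bodies, more than 1 kb from both ends, members were called in 67.0% and 72.5% in the long lists, Bmal1 CKO 2 and control 1. A body summit was found in 7 (3.21%), 146 (67.0%) and 4 (1.83%) of 218 members in Bmal1 CKO 1, 2 and 3. In the controls it was found in 158 (72.5%), 3 (1.38%) and 2 (0.917%). Over all protein-coding genes the shares were 1.02%, 51.2% and 0.598% in the CKO libraries and 61.6%, 0.420% and 0.420% in the controls. Isolated Zfp genes had 1.34%, 70.5% and 0 in the CKO libraries and 77.2%, 0 and 0.671% in the controls.

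The members' body share averaged 24.0% ± 37.2 in CKO libraries and 24.9% ± 41.2 in controls (SD, n = 3 each). The difference was −0.92 points (exact permutation test, two-sided p = 1). As at the ends, each genotype has 1 long list, so this test cannot decide whether the genotypes differ. The difference was 9.48 points without Bmal1 CKO 1, 10.2 without Bmal1 CKO 3 and 22.9 without control 1, so here too single libraries set its direction. The clustered share minus the isolated share averaged −0.48 points (SD 2.89, n = 6 libraries; exact sign-flip permutation test, two-sided p = 0.688). It was above 0 in 4 libraries and below 0 in the long lists, and it turned to 0.124 without Bmal1 CKO 2 and 0.366 without control 1.

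Counted by summits and not by genes, the bodies of clustered Zfp genes held more than their length would give. They make up 0.447% of all protein-coding body length, and they held 11.99%, 0.902% and 4.55% of all body summits in the CKO libraries and 0.669%, 3.77% and 1.94% in the controls. The summit share exceeded the length share in 6 of 6 libraries, by 3.52 points on average (SD 4.22; exact sign-flip permutation test, two-sided p = 0.031, the smallest that 6 libraries allow). Without Bmal1 CKO 1 the excess was 1.92 points and with any 1 library left out p was 0.0625, the smallest that 5 libraries allow. The excess rested on chromosome 4: without its 2 clusters, an alternative chosen after seeing the data, it was 0.155 points with p = 0.281 in the same exact test. The remaining 203 members then held 0.510%, 0.443% and 0.649% of body summits in the CKO libraries and 0.397%, 0.943% and 0 in the controls, against 0.335% of length. The count behind the short lists was then 2, 1, 1 and 0 summits in Bmal1 CKO 1 and 3 and control 2 and 3.

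The 2 clusters of chromosome 4, of 6 members from Zfp980 to Zfp993 and 9 from Zfp978 to Zfp933, held a disproportionate part of every list. Their spans cover 2.05 Mb, 0.0751% of the genome, and held 78, 437 and 11 summits in the CKO libraries, against 356, 3 and 2 in the controls. As a share of its list that was 5.40%, 0.316% and 2.12% in the CKO libraries and 0.198%, 0.732% and 0.538% in the controls. Each of the 6 shares exceeded the genome share, and the ranges of the genotypes overlapped. The share was higher in each of the 4 short lists than in either long one. Such density was not confined to chromosome 4. The span from Zfp930 to Zfp866 on chromosome 8 held 42.4, 159 and 3.53 summits per Mb in the CKO libraries. In the controls it held 152, 5.30 and 1.77. The cluster from Zfp980 to Zfp993 held 43.2, 182 and 5.30 per Mb and 143, 2.27 and 0.757. That from Zfp978 to Zfp933 held 29.0, 271 and 5.52 and 231, 0 and 1.38. The chromosome 8 span was above both in control 2 and control 3 and below both in Bmal1 CKO 2 and 3.

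All 15 members on chromosome 4 had body summits in both long lists. All are longer than 20 kb, and other protein-coding genes of 20 to 40 kb had one in 69.3% in Bmal1 CKO 2 and 84.6% in control 1, those over 40 kb in 93.8% and 97.0%. The members' density had a median of 21.5 per 100 kb in Bmal1 CKO 2 and 16.7 in control 1, and it was higher in Bmal1 CKO 2 in 11 genes, equal in 2 and lower in 2. Over all protein-coding bodies the density was 55.1 per Mb in Bmal1 CKO 2 and 75.8 per Mb in control 1, that is, 5.51 and 7.58 per 100 kb. Zfp992 had the highest, 39.2 and 34.3 per 100 kb from 8 and 7 summits. In the short lists body summits were found in 5 and 3 of the 15 members in Bmal1 CKO 1 and 3, against 2 each in control 2 and control 3.

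**Figure D5:**
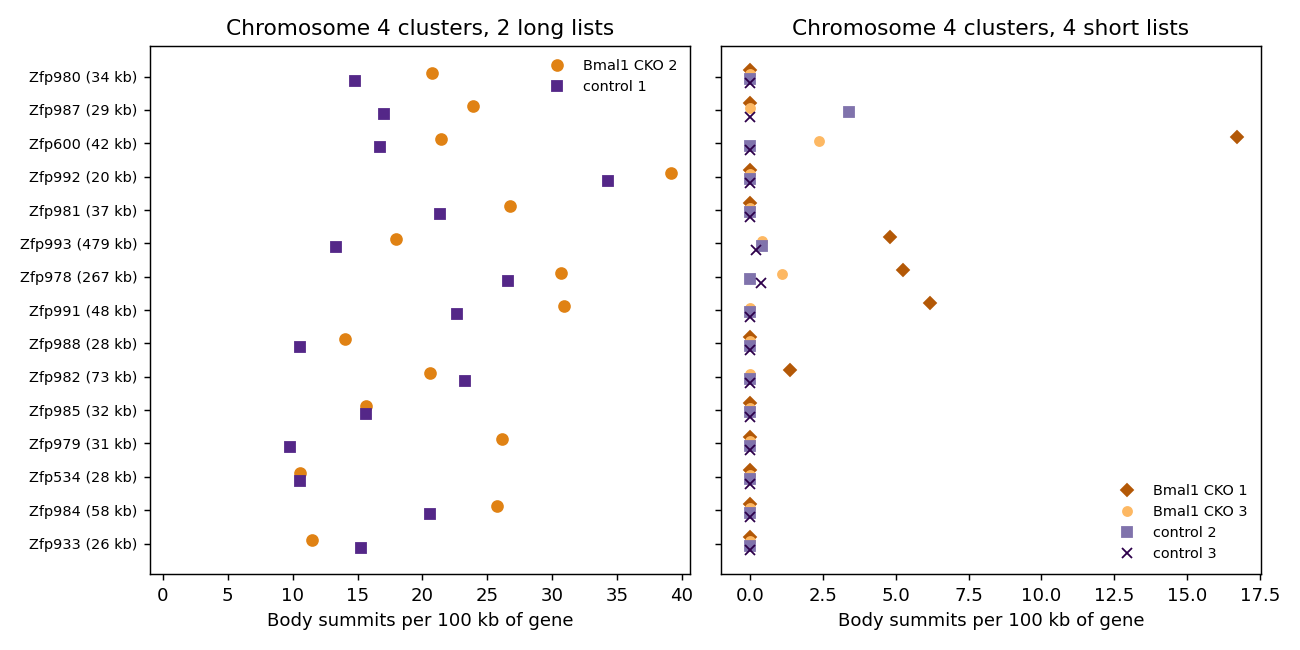
Body summits per 100 kb of gene (x axis) for the 15 members of the chromosome 4 clusters in chromosome order (gene length in brackets), in the long lists (left) and the short lists (right), 1 point per gene and library. All 15 genes are above 0 in both long lists, between 9.81 and 39.2 per 100 kb, and most are at 0 in the short lists, where Bmal1 CKO 1 reaches 16.7 in Zfp600.

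Counting ends and bodies together, 7, 214 and 4 members had a summit in the CKO libraries and 215, 3 and 2 in the controls. The background over all protein-coding genes was 1.27%, 75.3% and 0.685% in the CKO libraries and 83.4%, 0.475% and 0.475% in the controls. In the short lists 8 members had any summit, and 6 of these lay on chromosome 4. Zfp993, the longest member at 479 kb, was alone in having body summits in all 6 lists, 23, 86 and 2 in the CKO libraries and 64, 2 and 1 in the controls. One place within it was called in every list, with summits between chr4:146568437 and chr4:146568633. Its fold there was 6.87, 10.3 and 6.76 in the CKO libraries and 7.62, 6.80 and 6.30 in the controls, from 38, 70 and 14 stacked fragments in the CKO libraries and 33, 13 and 16 in the controls. Zfp978, 267 kb long, had 14, 82 and 3 body summits in the CKO libraries and 71, 0 and 1 in the controls. Its strongest place, near chr4:147211057, had a fold of 11.7 in Bmal1 CKO 2 and 10.99 in control 1. The RefSeq models of these genes overlap other members, Zfp993 that of Zfp981 and Zfp978 those of Zfp991 and Zfp988, so part of their summits count for more than 1 gene.

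The other members with short-list summits had few. Zfp600 had 7, 9 and 1 body summits in the CKO libraries and 7, 0 and 0 in the controls, and its start was called in Bmal1 CKO 1 with a fold of 3.94. Zfp982 was the other member called at an end in Bmal1 CKO 1, at a fold of 3.06. Zfp991 and Zfp987 on chromosome 4 and Zfp975 on chromosome 7 each had body summits in 1 short list. Zfp185, on the X chromosome, was called at 1 place in 5 lists, with summits between chrX:73026649 and chrX:73026666 and none in control 3. Its fold there was 6.35, 6.29 and 7.69 in the CKO libraries, against 7.85 in control 1 and 8.33 in control 2.

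Short-list summits at members recurred in part in the long lists. Merged within 300 bp, they made 52 places, 50 of them on chromosome 4, of which 33 were called in both long lists. For 42 of the 52, Bmal1 CKO 1 was the only short list with a call, which has the most peaks and the highest background of the 4 short lists. Over the chromosome 4 spans, 59 of the 78 summits of Bmal1 CKO 1 (75.6%) lay within 300 bp of one in Bmal1 CKO 2 and 54 (69.2%) of one in control 1. All 11 of Bmal1 CKO 3, all 3 of control 2 and both of control 3 were met in each long list. The long lists are dense there, with 437 summits in Bmal1 CKO 2 and 356 in control 1 over 2.05 Mb. How often summits in the rest of each short list recurred was not counted, so these shares have no background beside them.

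The local background on chromosome 4 was raised in the long lists. Relative to the level across the genome, the median background at summits in the chromosome 4 spans was 2.11, 1.59 and 2.18 in the CKO libraries, against 1.69, 1.12 and 2.5 over the rest of each list outside the Zfp clusters. In the controls it was 1.55, 1.74 and 2.56 on chromosome 4, against 1.24, 2.73 and 2.61. It was thus higher on chromosome 4 in Bmal1 CKO 1 and 2 and control 1, and lower in the other 3. The median fold there was 3.99, 3.71 and 6.06 in the CKO libraries and 4.45, 6.80 and 7.25 in the controls, against 4.72, 2.96 and 7.14 and 3.54, 7.50 and 7.56 over the rest. The part of background, and of reads shared between similar copies, in the summits on chromosome 4 was not tested.

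Genes that act with KRAB zinc finger proteins were called at their ends at shares close to those of the members. Of 15 such genes, 0, 12 and 0 were called in the CKO libraries and 13, 0 and 0 in the controls, with 12 in both long lists. That is 80.0% in Bmal1 CKO 2 and 86.7% in control 1, where all protein-coding genes stood at 58.9% and 69.5%. Their median end fold was 3.53 and 4.41, against 3.10 and 3.93 over all protein-coding genes. Trim28, the corepressor that KRAB domains recruit, had folds of 2.68 in Bmal1 CKO 2 and 3.12 in control 1, both below the medians of the set. Setdb1, the methyltransferase, had 4.33 and 6.01, and its cofactor Atf7ip 3.91 and 5.54. The HP1 genes Cbx5, Cbx1 and Cbx3 had 4.14, 3.47 and 3.42 in Bmal1 CKO 2 and 4.28, 4.38 and 4.41 in control 1. Of the HUSH complex, which silences retroelements together with SETDB1, Mphosph8 had 5.01, the highest of the set in Bmal1 CKO 2, and 5.83, and Pphln1 had 3.34 and 4.91. Tasor, the third HUSH subunit, and the DNA methyltransferase gene Dnmt1 had no end summit. In the body Tasor had 2 summits in Bmal1 CKO 2 and 1 in control 1, and Dnmt1 had 1 and 2. Whether any of these lay at a start site was not examined. Mphosph8 also had a body summit in all 6 lists. Morc2a had end folds of 4.37 in Bmal1 CKO 2 and 5.49 in control 1, and Atrx 3.59 and 5.47. Uhrf1 had 2.90 and 3.12, and Daxx 2.16 and 2.40. Chd3 had an end summit in control 1 alone, at a fold of 2.17.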

How the data were processed

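BMAL1 ChIP-seq peak lists of 3 Bmal1 CKO and 3 control libraries from retina were read as deposited, 1 list per library. Each was given to the library that the series record names. List names carry other numbers than the library titles, and nothing in the lists can settle which library a long list belongs to. Tools named in the submitters' processing notes are MACS2, Bowtie2 and Trim Galore, with the build mm10. For versions, settings and the use of an input: not given in the sources used here. Per peak, the authors deposited a fold (ratio over local background), the −log10 of the summit's p-value and q-value, a score derived from the q-value, and start, end and summit positions. The lowest deposited −log10 q-value of a list was 1.30 to 2.53. These values rank and describe peaks of 1 list, and folds were not tested across libraries.

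The lists give no read totals. Fragments at a summit and their expected background were solved from fold and p-value, for all peaks of the short lists and 3000 drawn peaks of each long list. The p-value was matched within 0.001 on the log10 scale in 100% of them, and depth by this measure differed 10.4-fold between libraries. The level is read as proportional to depth only if the fold carries a pseudocount of 1.

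Gene ends came from the RefSeq table and start sites from RefSeq promoter sequences, both GRCm38.p6. A promoter was matched for 190 members and 115 isolated Zfp genes by gene ID. The 33 Zfp symbols with letters after Zfp are not members. Clusters chain members whose starts lie within 500 kb. Shares were compared between genotypes by exact permutation over 20 assignments, and between gene sets within libraries by exact sign flips over 64. Counting was tested on simulated peaks. The members, lists, tests and rule for named genes (members with short-list summits, the 10 with the highest lower long-list end fold, 5 per long list called there alone, the 3 largest clusters, 3 isolated genes, all silencing partners) were chosen with earlier results of these data known. Zinc finger and KRAB counts from protein sequence were not analysed here. Python 3.11.15, numpy 2.4.6, pandas 2.3.3 and scipy 1.17.1 were used.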

Additional observations from a re-analysis of the deposited data

How the results depend on the processing

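The genotype difference at member ends, −0.31 percentage points, was 0 with clusters chained at 250 kb, turned to 0.459 without both long lists (p = 1, exact permutation test), was −4.43 with peaks limited to a −log10 q of 5 or more and −9.17 with a fold of at least 5 (exact p = 1 each), and ran from −28.0 to 28.1 with 1 library left out. That in bodies, −0.92, turned to 0.459 with equal numbers of peaks per list and to 1.38 without both long lists (exact permutation p = 0.333, the smallest possible), was −5.35 and −3.36 with those q-value and fold limits (exact p = 1 each), and ran from −22.4 to 22.9 with 1 library left out. The clustered minus isolated body share, −0.48, turned to 0.713 with folds of 5 or more and to 1.33 without the long lists. It ran from −0.95 to 0.366 with 1 library left out. With equal numbers of peaks it turned to 1.49 (exact sign-flip p = 0.031). That value rests on few genes: 0.917% to 2.29% of members and 0 to 0.671% of isolated genes then had a body summit. The mean end share difference between clustered and isolated genes kept its direction in all 17 alternatives. Its size moved from 1.11 to 0.0765 with equal numbers of peaks (exact sign-flip p = 1). It was 2.69 with a window of 500 bp (exact p = 0.25), and ran from 0.201 to 1.33 with 1 library left out. With equal numbers of peaks only control 1 differed from 0, at 0.459, and without the long lists only Bmal1 CKO 1, at 0.917. In these settings 1 library set the direction and p was fixed in advance. Without the long lists this also held for the genotype difference at ends. In control 1 the clustered minus isolated difference was −1.51 with clusters chained at 1 Mb and −0.517 with any overlap of the peak interval. The excess of body summits over length was 5.12 points without the long lists (exact p = 0.125, the smallest that 4 libraries allow), 1.92 to 4.18 with 1 library left out, and 0.155 without the chromosome 4 clusters. The cause of these turns was not tested. With the replicate number as a block, the genotype differences were −0.31 at ends and −0.92 in bodies (exact p = 1 each). Over all protein-coding genes, log summit counts, taken as deviations from the genotype mean, correlated at −0.83, −0.84 and 0.831 between same-numbered libraries. Over all pairs of a CKO and a control library the correlation was positive only where both lists were long or both short. It thus followed list length and cannot show whether the numbers mark pairs. Depth limits the short lists, where a missing call is not absence.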

Other observations

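Outside the members but inside the spans of the clusters, some places were called in the short lists. Whether the summits named below lie in genes other than members was not examined. The span from Zfp930 to Zfp866 on chromosome 8 held 24, 90 and 2 summits in the CKO libraries and 86, 3 and 1 in the controls, and none of the short-list summits lay in a member or at its ends. The span from Zfp786 to Zfp467 on chromosome 6 held 1 summit in each of the 4 short lists, with folds of 10.2 and 12.1 in the libraries Bmal1 CKO 1 and 3 and of 12.4 and 11.7 in control 2 and control 3. The span from Zfp180 to Zfp574 on chromosome 7 likewise held 1 in each short list, with folds of 5.83 and 8.75 in those CKO libraries and of 8.19 and 7.63 in those controls.

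Among isolated Zfp genes, 3 of 149 had any summit in a short list. Zfp990, which lies close to the chromosome 4 clusters and has 1 neighbour, had body summits with folds of 4.29 and 5.85 in the libraries Bmal1 CKO 1 and 2 and 6.68 in control 1. Zfp473 had 5.38 in Bmal1 CKO 1. Zfp949 was called in its body in control 3.

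The share of members with a body summit differed with gene length. Members of up to 10 kb had a body summit in 46.9% in both long lists, and those over 40 kb in 86.7% in Bmal1 CKO 2 and 100% in control 1. The 100 members of 10 to 20 kb had one in 55% and 67%, where other protein-coding genes of that length stood at 45.6% and 66.3%. Members of 20 to 40 kb had one in 88.7% and 85.9%. Other protein-coding genes of up to 10 kb stood at 11.9% and 20.5%, those of 20 to 40 kb at 69.3% and 84.6%, and those over 40 kb at 93.8% and 97.0%. These shares were not tested.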
